A study of Mus musculus with 30 samples.

Results

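Dendritic cells grown from the bone marrow of Rubcn knockout (KO) mice were compared with and without ovalbumin (OVA) protein for 4 h. The members are the 3 KO libraries with OVA for 4 h and the 3 untreated KO libraries, 6 of the 30 libraries in the series, and every gene of the count table was examined in them. The table held 25611 gene rows, of which 14808 had enough reads to be tested. All cells were cultured for 6 to 7 days with FLT3L at 200 ng/ml, and every group was KO or wild type (WT) in genotype. For comparison, the report also uses 3 KO libraries with OVA for 30 min, 3 untreated WT libraries and 3 WT libraries with OVA for 4 h, and the other 15 libraries entered the fit only. Of these, 3 were WT cells with OVA for 30 min and 12 were KO or WT cells given apoptotic Jurkat cells, a human T-cell line. The labels do not say which part of Rubcn is disrupted, which mice or cultures the replicates came from, or the OVA dose. They also give the untreated cells no time in culture medium, so that a change with handling and a change with OVA cannot be told apart.

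Rubcn encodes Rubicon, a protein that restrains canonical autophagy and takes part in LC3-associated phagocytosis, in which LC3 is joined to single-membrane phagosomes. OVA is an egg-white protein widely used as a model antigen. FLT3L cultures give plasmacytoid dendritic cells and both types of conventional dendritic cell. In such cells, sensing of foreign material acts through NF-kB, which drives chemokine and cytokine genes within minutes to hours, and through interferons, whose receptors signal to a large set of interferon-stimulated genes.

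The 6 libraries held 38680894 to 51245244 counted reads each. The levels below are CPM (a gene's counts-per-million of the library's reads), scaled by the trimmed mean of M-values (TMM). Rubcn itself, counted over the whole gene (mm10 chromosome 16, 32821702 to 32868366), stood at 70.4, 72.2 and 75.8 CPM in the untreated KO libraries. With OVA for 4 h it stood at 71.3, 72 and 70.3 CPM, against 95.6 to 105 CPM in untreated WT libraries. The KO libraries lay below the WT libraries without overlap, but this count cannot check the knockout, since the disrupted part is not named. Rubcn had a log2 change of -0.03 with OVA in KO cells (adjusted p = 0.749).

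One library stood apart from its group. The untreated KO library numbered replicate 1 differed from replicates 2 and 3 by a chi-square per degree of freedom of 10.3 and 12.9 over genes. Replicates 2 and 3 differed by 2.84, and the pairs among the OVA libraries differed by 2.44 to 3.9. No pair was close enough to be 1 library deposited in duplicate. In this library the 12 monocyte or macrophage markers summed to 5080 CPM, against 4440 and 4380 CPM in the other untreated libraries. Most counts of called genes below are therefore also given without it.

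Markers of dendritic cells were present in all 6 libraries. The 10 markers of type 1 conventional dendritic cells summed to 5130 to 5280 CPM untreated and to 4820 to 4950 CPM with OVA, without overlap. Of these, 3 fell and none rose: Itgae, the integrin CD103 (log2 change -0.65), Cadm1, an adhesion molecule (-0.33), and Wdfy4, needed for cross-presentation (-0.20). Xcr1 and Clec9a, which define the type, had log2 changes of 0.04 and -0.03 and did not pass the test. The 9 plasmacytoid markers summed to 2390 to 2580 and 2370 to 2450 CPM, and the 9 markers of type 2 cells to 1810 to 1960 and 1880 to 1960 CPM, both with overlap. Of the plasmacytoid markers 1 rose and 1 fell, and of the type 2 markers 2 rose and 2 fell. Over all genes tested, 5.94% rose and 5.69% fell.

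Markers of other cells moved in part. The monocyte or macrophage sum was 4380 to 5080 CPM untreated and 5030 to 5140 CPM with OVA. Of those 12 markers 4 rose, the complement genes C1qa (log2 0.60), C1qb (0.43) and C1qc (0.41) and the macrophage surface protein Adgre1 (0.51), and F13a1 fell by 0.32 on the log2 scale. Without untreated replicate 1, 6 rose. The 10 stromal markers summed to 857 to 1100 CPM untreated and 1110 to 1200 CPM with OVA, with 2 called higher, or 4 without untreated replicate 1, 0 without OVA replicate 1 and 1 without any other library. The 6 endothelial markers summed to 43.5 to 48.2 and 50.8 to 53.9 CPM, none of them called. Of the 5 tested, only 1 had a fitted change above 0, and their median log2 change was -0.14. Neutrophil, basophil or mast cell, B cell, T cell and natural killer cell markers gave no call, the T cell sum was at most 12 CPM, and the erythroid genes Hbb-bs, Hba-a1 and Car1 were at 0. The part of these cells in the results was not tested. In bulk libraries, fewer cells of a type and less RNA per cell cannot be told apart.

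After OVA for 4 h, most of the listed chemokine genes, interferon-stimulated genes and genes of NF-kB subunits and inhibitors were higher in KO cells. Rises went up to 60-fold among genes with a group mean of at least 5 CPM. Of the 14808 genes tested, 1722 (11.6%) passed the test, defined by an adjusted p under 0.05 from edgeR's quasi-likelihood test with Benjamini-Hochberg adjustment. They divided evenly, with 879 (5.94%) higher and 843 (5.69%) lower. The size of the change did not divide evenly: 104 genes (0.702%) rose at least 2-fold and 15 (0.101%) fell as far. At 4-fold or more, 30 rose and 0 fell. Of the rises, 4 were of genes with no read in any untreated KO library (Cxcl11, Ccl20, Clec12b and Btc), and with a floor of 3 reads per library in place of 0 the counts were 101 at 2-fold and 27 at 4-fold. Most changes were small, and 84.1% of the called genes changed by less than 1.5-fold.

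Among called genes, 865 of the 879 higher and 835 of the 843 lower had 3 OVA libraries that did not overlap the 3 untreated ones. Over all genes tested, 15.1% lay wholly higher and 16.9% wholly lower. The called genes were chosen for a difference between these same libraries, so their lack of overlap is no separate support. Without untreated replicate 1, 1382 genes were called, 797 higher and 585 lower, of which 122 rose and 9 fell at least 2-fold. Without OVA replicate 1 the count was 1105, and without OVA replicate 3 it was 1139, with 490 lower in each case. The falls of at least 2-fold numbered 5 without untreated replicate 3, 9 without OVA replicate 1 and 8 without OVA replicate 2 or 3. The rises of at least 2-fold numbered 85 to 122 without 1 library. Leaving out any 1 library lowered the count, to between 1105 and 1382 called genes, with 490 to 632 lower. Whether a call lost below rested on the library left out or on the smaller number of libraries was not tested. The plot of all genes shows that the large rises lay at low and middling levels.

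**Figure D1:**
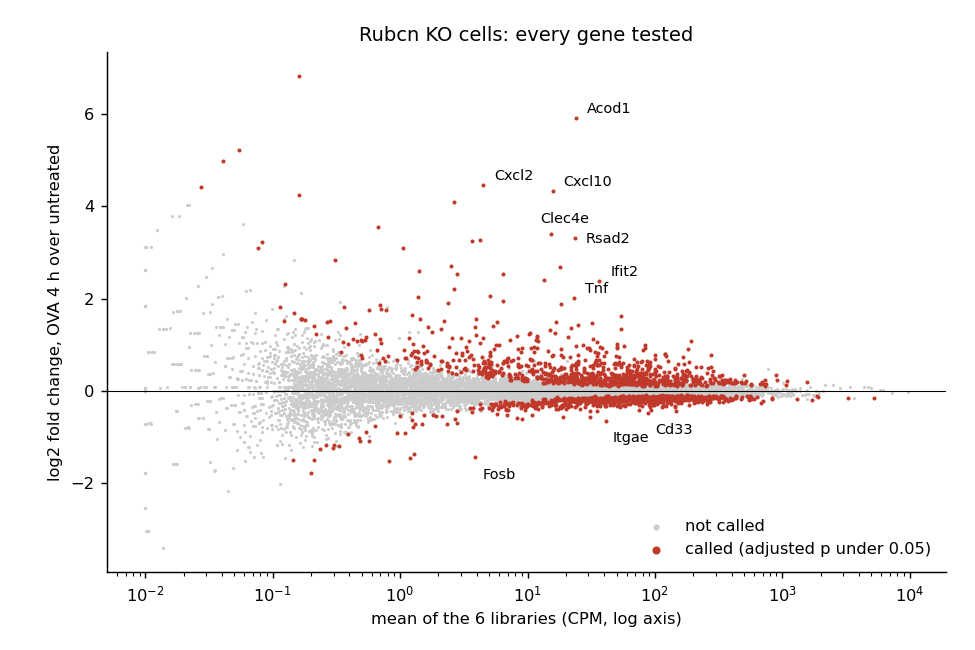
Log2 fold change of OVA 4 h over untreated in Rubcn KO cells (vertical axis) against the mean level of the 6 libraries (CPM, log axis, with lower means drawn at 0.01), 1 point per gene tested, red where the adjusted p was under 0.05. The called points spread much farther upward than downward: among genes with a group mean of at least 5 CPM, Acod1 lay highest at 5.91 and Fosb lowest at -1.43, and the fitted change of a gene with no untreated read, such as Cxcl11, is no bound.

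The largest rise among genes with a mean of at least 5 CPM in the OVA group was that of Acod1 (chromosome 14, 103047012 to 103056573 on mm10), which makes itaconate from a citric acid cycle intermediate. It stood at 0.588, 0.871 and 0.882 CPM in untreated KO libraries and at 48.8, 41.3 and 51.1 CPM after 4 h of OVA. No overlap was a condition for naming the largest rises and falls, but the lowest OVA library lay far above the highest untreated one. The log2 change was 5.91 ± 0.50 (SE, adjusted p = 1.17e-09), a 60-fold rise.

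Cxcl2 (chromosome 5, 90903899 to 90905938), a chemokine that attracts neutrophils, stood at 0.315, 0.352 and 0.501 CPM untreated and at 9.72, 7.19 and 8.75 CPM with OVA. Its log2 change was 4.45 ± 0.26 (SE, adjusted p = 9.44e-13). Cxcl10 (chromosome 5, 92346639 to 92348889), a ligand of CXCR3 that interferons induce, rose from 2.16, 1.33 and 1.02 CPM to 36.4, 23.8 and 30 CPM. The groups were well apart for both genes, and the OVA libraries of Cxcl10 differed among themselves more than those of Acod1. The log2 change of Cxcl10 was 4.33 ± 0.59 (SE, adjusted p = 6.22e-06).

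The next in size by the same cut on the group mean were Clec4e, the receptor Mincle for microbial glycolipids and dead cells (log2 change 3.39), Rsad2, the antiviral enzyme viperin (3.32), and Gpr84, a receptor for medium-chain fatty acids (3.28). Cxcl9, another CXCR3 ligand, had a log2 change of 3.24, from 0.58 to 0.842 CPM untreated to 9.96, 4.35 and 5.68 CPM with OVA. The first OVA library was the highest, and without it the change was 2.79 with an adjusted p of 0.0785. The remaining large rises were those of Ifit1 (2.68), Oasl1 (2.53), Ifit3 (2.40), Ifit2 (2.38), Ifit1bl1 (2.05), Tnf (2.0), Ccl4 (1.95) and Isg15 (1.89). Except for Cxcl9, these 15 genes stayed called without any 1 of the 6 libraries.

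**Figure D2:**
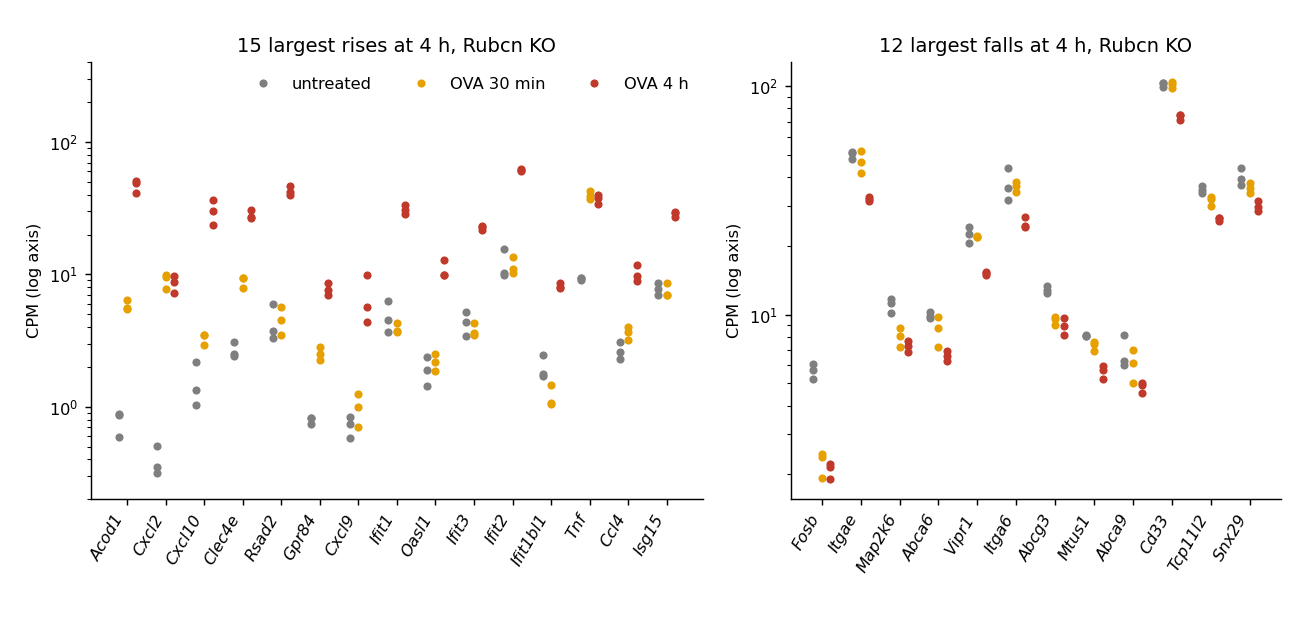
Level of each of the 15 largest rises (left) and 12 largest falls (right) in Rubcn KO cells, in CPM on a log axis, 1 point per library, for untreated cells (grey), OVA 30 min (orange) and OVA 4 h (red). No overlap between red and grey points was a condition for choosing these genes, so their separation is no result. The gaps are far larger on the left than on the right.

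Most chemokine ligands of the list rose. This list and those below were written with earlier results of these data known, so their shares are no independent evidence. Of 22 chemokine ligands tested, 16 were called higher and 0 lower. Their median log2 change was 1.08, against -0.00039 over all genes tested. Without untreated replicate 1 the count was again 16, and the fewest were 11, without untreated replicate 3 or OVA replicate 1. Ccl9 rose from 139, 122 and 109 CPM to 270, 258 and 259 CPM (log2 1.08), and Cxcl16, the membrane-bound ligand of CXCR6, from 75.9 to 76.5 CPM to 117 to 126 CPM (0.69). Cxcl11, another CXCR3 ligand, had no untreated read and stood at 0.331, 0.289 and 0.341 CPM with OVA, at least 5.18-fold higher against a floor of 3 reads per library (adjusted p = 0.0471). The chemokine Ccl3 rose by 1.08 and the monocyte chemoattractant Ccl2 by 0.84. Ccl5, which these cells already held at 82.2 to 89.7 CPM, had a log2 change of 0.12 (adjusted p = 0.297).

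Secreted cytokines rose in part. Of 22 tested, 6 rose and 0 fell, as also without untreated replicate 1, and the median log2 change was 0.56, or 0.49 without Ifnb1. Tnf (chromosome 17, 35199367 to 35202007), the main inflammatory cytokine of this list, stood at 9.43, 9.43 and 9.1 CPM untreated and at 40.1, 34.3 and 37.6 CPM with OVA. The 3 libraries of each group were close together, and the log2 change was 2.0 ± 0.10 (SE, adjusted p = 6.92e-14). Il1b, made as a precursor that inflammasomes process, rose from 24.3 to 25.8 CPM to 44.4 to 51.1 CPM (log2 0.95). Its natural antagonist Il1rn rose by 0.64.

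Several cytokines that define strong activation were not called. Il12b, the shared subunit of IL-12 and IL-23, stood at 16.1, 16.8 and 16.7 CPM untreated and at 22, 16.5 and 17.6 CPM with OVA, with overlap (adjusted p = 0.77). Il6 stood at 0.252 to 0.622 CPM and 0.385 to 1.08 CPM (adjusted p = 0.677), and Il10 at 0.1 to 0.357 and 0.195 to 0.441 CPM (adjusted p = 0.327). Ifnb1, which encodes interferon beta, had no read in any untreated KO library, where 3 reads would be 0.0601 to 0.063 CPM. With OVA it stood at 0.0735, 0.024 and 0 CPM, and its change did not pass the test (adjusted p = 0.246).

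Among chemokine and cytokine receptors, 8 of 41 rose and 4 fell, or 9 and 4 without untreated replicate 1, and 2 fell without OVA replicate 1, with a median log2 change of 0.00. Ccrl2, an atypical receptor that binds chemerin, rose by 0.66, the TNF receptor Tnfrsf1b by 0.51 and the common gamma chain Il2rg by 0.31. Il6ra fell by 0.22 and Ifngr1 by 0.17 on the log2 scale. The lymph-node homing receptor Ccr7 stood at 102 to 108 CPM and 112 to 116 CPM, without overlap, with a log2 change of 0.13 that did not pass the test (adjusted p = 0.379). With the compared groups fitted alone it passed (adjusted p = 0.0255).

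The inhibitors of NF-kB rose together with the subunits of its non-canonical arm. Of 22 genes of NF-kB subunits and inhibitors, 15 were called higher and 0 lower, with a median log2 change of 0.38, and 14 were higher without untreated replicate 1. Nfkbia, which encodes the inhibitor IkB-alpha, rose from 87.5, 88.6 and 87.4 CPM to 157, 144 and 160 CPM (log2 0.81 ± 0.05 SE, adjusted p = 5.51e-12). Tnip3, a partner of A20, rose by 1.03, Tnfaip3, which encodes A20 itself, by 0.70, Tnip1 by 0.64 and Nfkbiz by 0.51. The subunits Nfkb2 and Relb rose by 0.59 and 0.62. Rela, the p65 subunit, had a log2 change of 0.05 (adjusted p = 0.66), with 114 to 124 CPM untreated and 118 to 130 CPM with OVA.

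Regulators that damp signalling showed the same direction. Of 16 tested, 10 rose and 1 fell, or 10 and 0 without untreated replicate 1. The phosphatases Dusp2 (log2 0.77) and Dusp1 (0.50), the cytokine-signalling inhibitor Socs3 (0.45) and the RNase Zc3h12a (0.37) rose. The 1 that fell, Dusp6, had a log2 change of -0.18 and lost its call without untreated replicate 1 (adjusted p = 0.0601), OVA replicate 1 (0.0503) or OVA replicate 3 (0.0714).

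Interferon-stimulated genes had the largest share of called members among the lists. Of 47 tested, 44 rose and 0 fell, the median log2 change was 0.78, and all 47 fitted changes were above 0. The OVA libraries lay wholly above the untreated ones for 46 of the 47, against 15.1% of all genes. Without untreated replicate 1, 43 were called, and the fewest were 40, without untreated replicate 3. Rsad2 stood at 5.99, 3.71 and 3.29 CPM untreated and at 46.9, 39.8 and 42.1 CPM with OVA, and Ifit1, which binds viral RNA, at 6.32, 4.52 and 3.67 CPM against 30.8, 28.7 and 33.6 CPM. Untreated replicate 1 was the highest of its group for both, and still far below every OVA library.

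Isg15, a ubiquitin-like modifier, rose from 8.59, 7.71 and 6.99 CPM to 29.7, 29.2 and 27.3 CPM. Rtp4 (log2 1.49) and Tor3a (0.50) had the smallest p-values of the list with Rsad2. Irf7, the transcription factor that amplifies interferon production, rose from 72.5 to 76.3 CPM to 123 to 133 CPM (log2 0.77 ± 0.15 SE, adjusted p = 0.000839). The members that did not pass were Bst2 (log2 0.06), Samd9l (0.11) and Ifi203 (0.26). Counts of Ifit1, Ifit3, Ifit3b and Ifit1bl1, and of the Oas and Gbp families, are uncertain in part, because near-identical copies can share reads.

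Promoters of 4 strong responders are shown because they hold the letters looked for in the start regions of genes that moved together. The sequences are from RefSeq on GRCm38.p6, the assembly that mm10 names, and run from 250 bases before to 50 bases after the annotated start, 5′ to 3′ on the gene's strand. Capitals mark matches to a kappa-B motif, GGG and TTCC with any 3 bases between them, and to an interferon-response motif, GAAA and GAAA with any 2 bases between them. On the other strand these read GGAA and CCC, and TTTC and TTTC, with the same spacing. Cxcl2 lies on the plus strand (chr5:90903649-90903948), Cxcl10 on the minus strand (chr5:92348840-92349139), Ifit1 on the plus strand (chr19:34640639-34640938) and Isg15 on the minus strand (chr4:156200769-156201068).
Cxcl2: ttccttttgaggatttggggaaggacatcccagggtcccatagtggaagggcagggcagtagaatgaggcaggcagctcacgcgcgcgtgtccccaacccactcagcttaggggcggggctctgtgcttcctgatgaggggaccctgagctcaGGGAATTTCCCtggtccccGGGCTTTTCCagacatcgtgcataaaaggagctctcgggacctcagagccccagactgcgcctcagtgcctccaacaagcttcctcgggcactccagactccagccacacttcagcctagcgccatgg
Cxcl10: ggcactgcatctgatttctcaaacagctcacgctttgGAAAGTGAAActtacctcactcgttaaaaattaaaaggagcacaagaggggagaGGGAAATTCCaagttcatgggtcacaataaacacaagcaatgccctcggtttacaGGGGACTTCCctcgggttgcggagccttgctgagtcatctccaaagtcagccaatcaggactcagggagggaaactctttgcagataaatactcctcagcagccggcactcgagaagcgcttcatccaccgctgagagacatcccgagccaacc
Ifit1: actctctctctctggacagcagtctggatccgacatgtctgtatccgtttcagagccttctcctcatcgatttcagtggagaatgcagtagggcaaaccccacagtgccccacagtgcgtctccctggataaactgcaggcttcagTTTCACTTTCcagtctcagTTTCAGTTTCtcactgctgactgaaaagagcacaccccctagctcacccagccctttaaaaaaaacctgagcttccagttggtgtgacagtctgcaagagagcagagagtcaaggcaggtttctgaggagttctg
Isg15: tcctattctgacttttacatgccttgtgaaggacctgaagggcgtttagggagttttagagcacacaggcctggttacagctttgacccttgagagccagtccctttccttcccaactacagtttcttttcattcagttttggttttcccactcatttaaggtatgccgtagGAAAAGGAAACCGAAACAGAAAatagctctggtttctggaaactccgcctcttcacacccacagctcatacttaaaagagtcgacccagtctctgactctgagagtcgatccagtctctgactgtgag
In Cxcl2 the kappa-B matches began 97, 96 and 78 bases before the start, with those at 97 and 96 overlapping as both strands of 1 palindromic stretch. Cxcl10 held kappa-B matches at 159 and 104 bases and an interferon-response match at 213 bases before its start. The Ifit1 matches to the interferon-response motif began 104 and 85 bases before the start, and those of Isg15, which overlap, at 78, 72 and 66 bases.

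A promoter whose start lay within 100 bases of the table's gene start was found by gene ID for 11032 of the 14808 genes tested. Of these, 6.28% held a kappa-B match and 3.3% an interferon-response match. Among the 688 called higher 69 held the former and 71 (10.3%) the latter, and among the 633 called lower the shares were 5.69% and 0.948%. The interferon-response letters were in 22 of 36 promoters of interferon-stimulated genes (61.1%) and in 0 of 17 of the NF-kB list, of which 9 (52.9%) held a kappa-B match. Chemokine promoters held a kappa-B match in 5 of 14 and an interferon-response match in 2 of 14. Promoters of interferon-stimulated genes held a kappa-B match in 6 of 36. Of 20 promoters of early transcription factors, 0 held a kappa-B match and 1 an interferon-response match. Of the 15 largest rises, 14 had a promoter, and 8 of these held either motif: 6 the interferon-response motif and 3 the kappa-B motif, with Cxcl10 holding both. Acod1, Clec4e, Gpr84, Cxcl9, Oasl1 and Tnf held neither in this window. These are matches of letters in a fixed window and were given no test.

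Sensors of microbial products rose in part. Of 26 pattern recognition receptors and adaptors, 7 rose and 0 fell, with a median log2 change of 0.05, and the count without untreated replicate 1 was also 7. Clec4e rose from 3.11, 2.4 and 2.5 CPM to 27.3, 26.6 and 30.5 CPM. The lipopolysaccharide co-receptor Cd14 rose from 35.5, 29.9 and 25.9 CPM to 80, 74.3 and 78.2 CPM (log2 1.35 ± 0.08 SE, adjusted p = 9.44e-13), and Tlr2, which senses lipoproteins, from 56.3 to 56.8 CPM to 85.2 to 89.6 CPM (0.64). The groups did not overlap for these 3 receptors. Tlr4 had a log2 change of -0.11 (adjusted p = 0.591) and the adaptor Myd88 one of 0.09 (adjusted p = 0.21). Tlr9, the DNA sensor, stood at 147 to 155 CPM untreated and at 149 to 150 CPM with OVA.

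Genes of dendritic cell maturation rose for 9 of 25 members and fell for 0, with a median log2 change of 0.20. Without untreated replicate 1 the count was 7. Cd40, the receptor for T-cell help, rose from 13.4, 13.4 and 14 CPM to 39.7, 33 and 36.3 CPM (log2 1.42 ± 0.27 SE, adjusted p = 0.000598). Cd274, the inhibitory ligand PD-L1, rose by 0.90, the adhesion molecule Icam1 by 0.77 and Cd83 by 0.29. The costimulatory ligands Cd86 (72.7 to 74.8 CPM untreated, 79.8 to 84.7 CPM with OVA) and Cd80 (11 to 11.5 and 12.4 to 13.1 CPM) did not overlap between groups. Their log2 changes of 0.17 and 0.18 did not pass the test, with adjusted p-values of 0.119 and 0.151. Cd86 passed with the compared groups alone (adjusted p = 0.00628) and in libraries without Jurkat cells (0.0109).

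In antigen presentation, the class I pathway moved by small amounts and the class II pathway hardly at all. Of 31 genes of class I processing and cross-presentation, 11 rose and 3 fell, the median log2 change being 0.06. Without untreated replicate 1, 8 rose and 2 fell, and 1 fell without OVA replicate 1 or 2. The class I heavy chain H2-K1 stood at 798, 867 and 847 CPM untreated and at 994, 971 and 1011 CPM with OVA (log2 0.24), and its partner B2m at 986 to 1054 and 1163 to 1183 CPM (0.22). Class I heavy chains resemble each other closely, so their counts are uncertain. Ncf4, a subunit of the phagocyte NADPH oxidase, had the smallest p of the list (log2 0.40). The peptide transporter Tap1 had a log2 change of 0.09 (adjusted p = 0.202) and Sec22b, linked to cross-presentation, one of 0.07 (adjusted p = 0.238).

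Of 17 class II genes, 1 rose, the promoter-binding factor Rfx5, with a log2 change of 0.11. Its call was lost without untreated replicate 1 or 2 or without any 1 of the OVA libraries (adjusted p = 0.0586 to 0.133). H2-Aa stood at 5892, 6309 and 6087 CPM untreated and at 6315, 6214 and 6133 CPM with OVA, with overlap. The class II master regulator Ciita had a log2 change of -0.09 (adjusted p = 0.185).

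Autophagy genes, the pathway that Rubicon acts in, leaned lower in KO and in WT cells. Of 34 genes of autophagy and LC3 conjugation, 9 fell and 1 rose in KO cells, against 5.69% and 5.94% of all genes, and the median log2 change was -0.06. In WT cells 13 of the 34 fell and 2 rose, against 11.7% and 11.9% of all genes, with a median of -0.1. The interaction test of genotype with OVA, described below, called 0 of the 34. In KO cells the count of lower genes was 5 without untreated replicate 1 and 3 without untreated replicate 3. Over all genes it was 585 and 544 in these fits, against 843 with all libraries. Leaving out an OVA library left 4 without replicate 1, 4 without replicate 2 and 5 without replicate 3, and 7 were lower without untreated replicate 2.

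Atg13, a subunit of the initiating ULK1 complex, fell from 59.8, 58.1 and 60 CPM to 51.8, 51.5 and 49.6 CPM (log2 -0.22 ± 0.03 SE, adjusted p = 2.02e-05). Its groups lay apart, and its call held without any 1 library. Sqstm1, the cargo receptor p62, was the 1 that rose, from 245 to 253 CPM to 300 to 324 CPM (log2 0.34 ± 0.05 SE, adjusted p = 1.61e-05). Atg5 had a log2 change of -0.03 (adjusted p = 0.776), and Uvrag, a partner in the complex that Rubicon binds, one of -0.10 (adjusted p = 0.0875). Uvrag passed under the stricter filter (adjusted p = 0.0453), with DESeq2 (0.0448) and in libraries without Jurkat cells (0.047). Atg7, the E1-like enzyme of LC3 conjugation, had one of -0.15 and lost its call without untreated replicate 2 (adjusted p = 0.132), untreated replicate 3 (0.0518) or OVA replicate 2 (0.117).

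**Figure D3:**
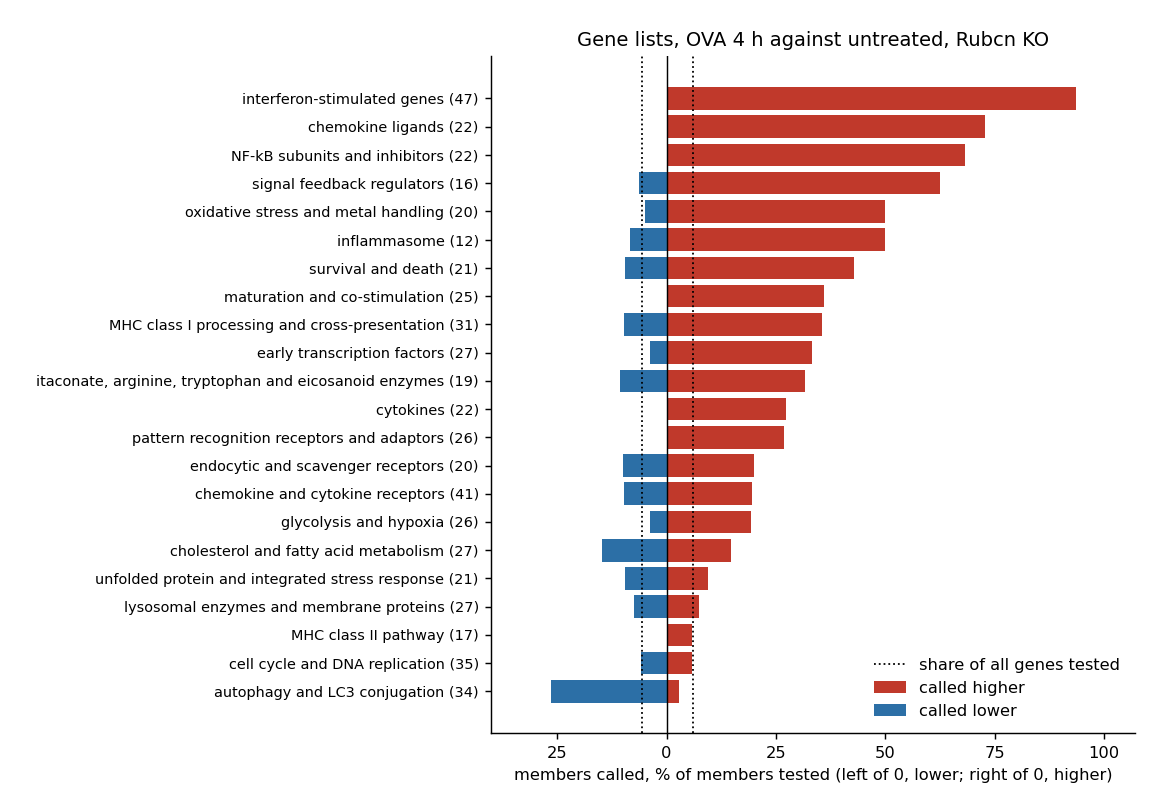
Share of the tested members of each pathway list that was called higher (red, right of 0) or lower (blue, left of 0) at OVA 4 h against untreated in Rubcn KO cells, with the number tested in brackets and dotted lines at the shares of all genes tested, 5.94% higher and 5.69% lower. Interferon-stimulated genes (44 of 47), chemokine ligands (16 of 22) and NF-kB genes (15 of 22) have the longest red bars, and autophagy genes (9 of 34) the longest blue bar of the pathway lists drawn. The lists were written with earlier results of these data known.

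Enzymes of itaconate, arginine, tryptophan and eicosanoid metabolism rose for 6 of 19 members and fell for 2, or for 1 without any 1 library other than untreated replicate 1, without which 4 rose and 2 fell. Beside Acod1, the inducible cyclooxygenase Ptgs2 rose from 2.04 to 2.45 CPM to 3.77 to 5.57 CPM (log2 1.08) and the arginine transporter Slc7a2 rose by 0.94. Ptgs1, the constitutive cyclooxygenase, fell by 0.33 on the log2 scale, from 6.37 to 7.08 CPM to 4.93 to 5.96 CPM. Nos2, the inducible nitric oxide synthase, stood at 0.084, 0.0207 and 0 CPM untreated and at 0.312, 0.216 and 0.244 CPM with OVA. Its groups did not overlap, but its change was not called (adjusted p = 0.166), whereas it was called by DESeq2 (adjusted p = 0.0392), with the compared groups alone (0.00858) and in libraries without Jurkat cells (0.00856).

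Of 20 genes of oxidative stress and metal handling, 10 rose and 1 fell. Slc7a11, the cystine importer, rose from 7.06, 5.97 and 5.49 CPM to 14.9, 13.4 and 14.8 CPM (log2 1.22), the thioredoxin reductase Txnrd1 rose by 0.57 and the mitochondrial superoxide dismutase Sod2 by 0.55. The metallothionein Mt1 fell by 0.33 on the log2 scale. The count of higher genes was 11 without untreated replicate 1 and 6 without untreated replicate 3.

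Inflammasome genes rose for 6 of 12 members and fell for 1, as also without untreated replicate 1. Mefv, which encodes pyrin, rose from 3.42, 3.38 and 2.32 CPM to 8.21, 8.49 and 8.9 CPM (log2 1.49), Casp4, the murine caspase-11 that senses lipopolysaccharide, rose by 0.84 and the pore-forming Gsdmd by 0.19. Nlrp1b fell from 19.1 to 20.2 CPM to 13.9 to 16.1 CPM (log2 -0.40). Of 21 survival and death genes, 9 rose and 2 fell. The risen genes numbered 10 without untreated replicate 1, and 1 fell without any 1 library other than OVA replicate 1. The death receptor Fas rose by 1.15, Gadd45b by 0.66 and Bax by 0.31, while the BH3-only gene Bmf fell by 0.20 on the log2 scale.

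Immediate early genes were mixed. Of 27 early transcription factors, 9 rose and 1 fell, or 8 and 1 without untreated replicate 1, and 2 fell without OVA replicate 1. Of these Maff rose by 0.66, Ier3 by 0.51, Junb by 0.42 and Atf3 by 0.40. Fosb (chromosome 7, 19302696 to 19310045), a member of the AP-1 family, went the other way. It stood at 5.73, 5.2 and 6.07 CPM untreated and at 2.22, 1.9 and 2.15 CPM with OVA. Its log2 change was -1.43 ± 0.14 (SE, adjusted p = 1.40e-08), the largest fall among genes with a mean of at least 5 CPM in the untreated group.

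In the remaining lists, calls were few and some were lost when 1 library was left out. Of 20 endocytic and scavenger receptors, 4 rose and 2 fell. The risen genes numbered 5 without untreated replicate 1, and 2 without untreated replicate 2, untreated replicate 3 or OVA replicate 1. The fallen genes numbered 0 without OVA replicate 1 or 3 and 1 without any other library. Marco, a macrophage scavenger receptor, stood at 0.399, 0.311 and 0.16 CPM untreated and at 4.83, 4.42 and 5.66 CPM with OVA (log2 4.09 ± 0.35 SE, adjusted p = 1.96e-09). The mannose receptor Mrc1 stood at 110, 78 and 70.1 CPM untreated and at 65.3, 64.5 and 62.1 CPM with OVA. Untreated replicate 1 was the high one, and without it the log2 change went from -0.42 (adjusted p = 0.031) to -0.21 (adjusted p = 0.328). Without an OVA library the adjusted p of Mrc1 was 0.0771 (replicate 1), 0.0745 (replicate 2) or 0.103 (replicate 3).

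Of 27 genes of cholesterol and fatty acid metabolism, 4 rose and 4 fell. The risen genes numbered 6 without untreated replicate 1, 1 without untreated replicate 3, and 2 without untreated replicate 2, OVA replicate 2 or OVA replicate 3. Nr1h3, the liver X receptor alpha, rose from 10.6, 7.46 and 7.71 CPM to 23.6, 19.2 and 21.6 CPM (log2 1.33), while the cholesterol exporter Abcg1 fell by 0.34 and the fatty acid enzyme Acaca by 0.30 on the log2 scale. Abca1, another cholesterol exporter, was called higher (log2 0.39, adjusted p = 0.0238). Its call was lost without any 1 library other than untreated replicate 1. Glycolysis and hypoxia genes rose for 5 of 26 and fell for 1, with the glucose transporter Slc2a1 up by 0.26 and Ldha at 0.01 (adjusted p = 0.873). That count was also 5 without untreated replicate 1, 3 without untreated replicate 2 or OVA replicate 3 and 2 without untreated replicate 3 or OVA replicate 1.

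Near or below the share of all genes were lysosomal genes, of which 2 of 27 rose and 2 fell, cell cycle genes (2 and 2 of 35) and genes of the unfolded protein and integrated stress responses (2 and 2 of 21). The risen lysosomal genes numbered 4 without untreated replicate 1 and 1 without untreated replicate 2 or 3, and the fallen ones 1 without untreated replicate 1, OVA replicate 1 or OVA replicate 3. For the cell cycle, 1 rose without untreated replicate 1, and 0 fell without untreated replicate 2 and 1 without untreated replicate 3, OVA replicate 1 or OVA replicate 3. For the stress responses, 1 rose without untreated replicate 2, untreated replicate 3, OVA replicate 1 or OVA replicate 3, and 1 fell without untreated replicate 1 or OVA replicate 1. In these lists the cathepsin Ctsz rose by 0.22, the cell cycle inhibitor Cdkn1a by 0.64 and Ppp1r15a by 0.36, and the cholesterol carrier Npc1 fell by 0.28. Asns, the asparagine synthetase, fell from 9.38 to 10.5 CPM to 7.14 to 8.29 CPM (log2 -0.34). Mki67 and Mcm2, marks of proliferation, had log2 changes of -0.09 and -0.08, with adjusted p-values of 0.167 and 0.269.

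The other large falls were smaller than the large rises. Itgae stood at 50.8, 48.3 and 51.4 CPM untreated and at 31.4, 32.1 and 32.7 CPM with OVA, a log2 change of -0.65 ± 0.09 (SE, adjusted p = 4.67e-06). Vipr1, a receptor for vasoactive intestinal peptide, fell from 20.6, 22.6 and 24.3 CPM to 15.4, 15.3 and 14.9 CPM (log2 -0.56), and the sialic-acid-binding receptor Cd33 from 104, 104 and 99.6 CPM to 71.3, 74.8 and 75.1 CPM (-0.47). That all OVA libraries lay below all untreated ones was a condition for naming these falls.

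Itga6, an integrin that binds laminin, fell by 0.56 on the log2 scale, and its untreated libraries spread from 31.7 to 43.8 CPM. Map2k6, the kinase upstream of p38, fell by 0.60. The transporter genes Abca6 and Abcg3 fell by 0.59 and 0.53, and Mtus1, Tcp11l2 and Snx29 by 0.52, 0.43 and 0.43. Abca9 had a log2 change of -0.50 (adjusted p = 0.0292). Its adjusted p was 0.193 without untreated replicate 1, with a change of -0.35, and 0.127, 0.0642 or 0.0633 without OVA replicate 1, 2 or 3.

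At 30 min the KO cells held part of the same response, with the same untreated libraries as controls. At this time 558 genes (3.77%) were called, 279 higher (1.88%) and 279 lower (1.88%), or 376 without untreated replicate 1. This count moved with single libraries, to 173 without 30 min replicate 2, 287 without 30 min replicate 3, 334 without untreated replicate 2 and 361 without untreated replicate 3. The 30 min library numbered replicate 3 had 9734778 counts, the fewest in the series.

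Cxcl2 stood at 9.56, 9.86 and 7.72 CPM at 30 min, with a log2 change of 4.58, and at 4.45 after 4 h. Tnf stood at 38.8, 36.8 and 42.6 CPM, with log2 changes of 2.06 at 30 min and 2.0 at 4 h. The levels of both at 30 min overlapped those at 4 h. Acod1 stood at 5.54, 6.36 and 5.5 CPM at 30 min, between its untreated and 4 h levels, with log2 changes of 2.91 and 5.91. Clec4e (log2 1.70 and 3.39), Gpr84 (1.67 and 3.28) and Nfkbia (0.55 and 0.81) were called at both times, and their 30 min libraries lay between the other groups.

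Interferon-stimulated genes gave a count of 0 of 47 called at 30 min, with a median log2 change of -0.05, beside 44 of 47 at 4 h. Rsad2 stood at 4.5, 3.48 and 5.7 CPM, Ifit1 at 4.32, 3.69 and 3.76 CPM and Isg15 at 8.62, 6.95 and 6.95 CPM at 30 min, all overlapping the untreated libraries. Chemokine ligands were called higher for 3 of 22 at 30 min, NF-kB genes for 6 of 22 and feedback regulators for 6 of 16, with 1 lower. Cxcl10 stood at 3.46, 2.93 and 3.48 CPM, and its log2 change of 1.11 was not called at 30 min (adjusted p = 0.541).

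Among the falls, Fosb had log2 changes of -1.27 at 30 min and -1.43 at 4 h. Egr1, an immediate early transcription factor, stood at 38, 31.3 and 33.5 CPM untreated and at 17.5, 16.5 and 18.3 CPM at 30 min (log2 -0.99, adjusted p = 1.07e-06). At 4 h it stood at 36.3, 26.8 and 27.2 CPM, which overlapped the untreated libraries (adjusted p = 0.267). Without OVA 4 h replicate 1, the highest, Egr1 was called lower at 4 h (log2 -0.34, adjusted p = 0.0219). Bhlha15 fell by 0.61 at 30 min on the log2 scale and had a change of -0.26 at 4 h (adjusted p = 0.0683, or 0.0356 in libraries without Jurkat cells). Itgae, Vipr1 and Cd33 had log2 changes of -0.08, -0.04 and -0.01 at 30 min, none of them called.

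**Figure D4:**
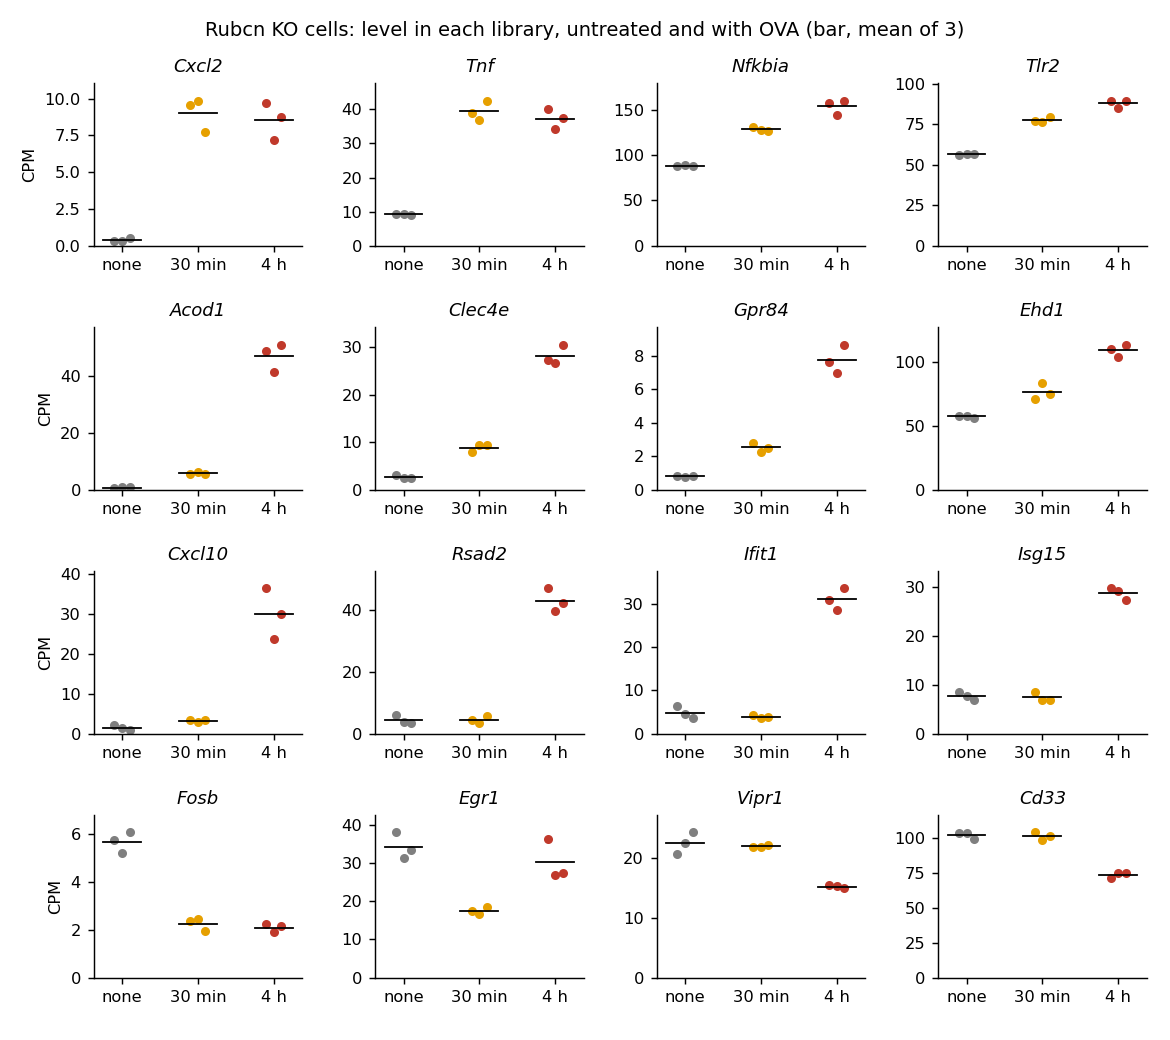
Level in CPM (vertical axes from 0) of 16 genes in each Rubcn KO library, untreated, at OVA 30 min and at OVA 4 h, with a bar at the mean of 3. Cxcl2 and Tnf are as high at 30 min as at 4 h, Acod1, Clec4e and Gpr84 lie between, Cxcl10 reaches 2.93 to 3.48 CPM at 30 min, and Rsad2, Ifit1 and Isg15 stand apart from untreated at 4 h.

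The same comparison in WT cells asked which changes at 4 h differed with the genotype. In WT cells 3484 genes (23.5%) were called at 4 h, 1757 higher (11.9%) and 1727 lower (11.7%). In both genotypes 1396 genes were called, 81.1% of the KO list and 40.1% of the WT list. Of the 879 genes higher in KO cells, 734 were called higher in WT cells and 864 had the same sign. Of the 843 lower in KO cells, 662 were called lower in WT cells and 832 had the same sign. The rise was larger in WT cells for 605 of the 879, and the fall was larger for 507 of the 843. Genes with the same sign or a larger change in WT cells were not counted over all genes tested. The count shared by both genotypes was 1181 of 1382 without KO untreated replicate 1.

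The difference between the responses was tested by an interaction of genotype with OVA, and 6 genes (0.0405%) passed, with 0 larger in KO cells. All 6 rose in both genotypes and rose less in KO cells. Leaving out KO untreated replicate 1 gave 5 such genes, leaving out KO untreated replicate 2 gave 3 and leaving out WT OVA replicate 3 gave 15, and with total-count scaling there were 7, of which 1 was larger in KO cells. Mmp14, a membrane-bound matrix metalloproteinase, rose from 59.9, 54.9 and 55.6 CPM to 111, 101 and 104 CPM in KO cells and from 40.3, 39.9 and 41.6 CPM to 119, 127 and 133 CPM in WT cells. Its log2 change was smaller in KO cells by a difference of -0.74 (adjusted p = 0.000149). Untreated KO cells held more Mmp14 than untreated WT cells, and with OVA they held less, without overlap and with no test made.

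Rasgef1b, an exchange factor for Ras-family proteins, had a difference of -0.68 (KO 0.76, WT 1.44), and Sod2 one of -0.34 (KO 0.55, WT 0.89). Ehd1, which recycles endosomes, rose from 56.3 to 57.8 CPM to 104 to 113 CPM in KO cells and to 133 to 153 CPM in WT cells, a difference of -0.42 (adjusted p = 0.022). The calls of Mmp14, Rasgef1b and Sod2 held without any 1 of the 12 libraries. That of Ehd1 held without KO untreated replicate 3, KO OVA replicate 3, WT untreated replicate 3 or WT OVA replicate 3, and was lost without any of the other libraries, with adjusted p-values of up to 0.136.

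In the fit over all 30 libraries, the interaction called none of the 15 genes named above for the largest rises. Ccl4 had log2 changes of 1.95 in KO and 3.14 in WT cells, with a difference of -1.18 (adjusted p = 0.327), and Tnf had 2.0 and 2.44 (adjusted p = 0.436). Nfkbia had 0.81 and 1.17, with an adjusted p of 0.0556. Among interferon-stimulated genes, 44 of 47 rose in KO and 45 of 47 in WT cells, with 0 interaction calls. The levels differed from the start: Rsad2 stood at 9.75 to 12.2 CPM in untreated WT libraries and at 103 to 133 CPM in WT libraries with OVA, and Irf7 at 148 to 166 and 250 to 268 CPM. For both genes the KO libraries lay below the WT libraries of the same treatment without overlap, which was given no test.

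**Figure D5:**
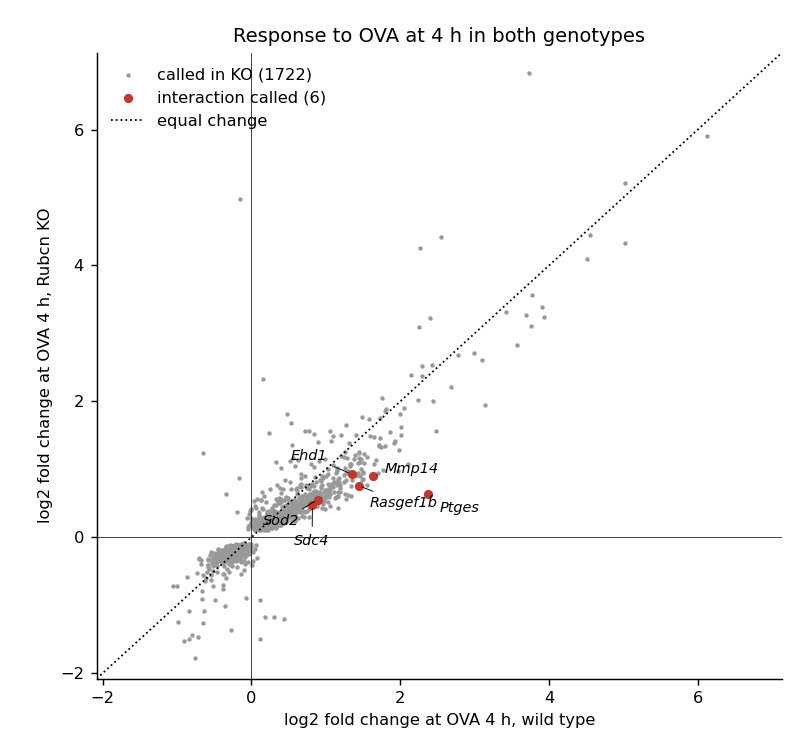
Log2 fold change of OVA 4 h over untreated in Rubcn KO cells (vertical axis) against that in wild-type cells (horizontal axis), for the 1722 genes called in KO cells, with the 6 genes of the interaction test in red and a dotted line of equal change. The red points all lie below the line, where the change is smaller in KO cells.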

How the data were processed

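RNA was sequenced from FLT3L-grown bone marrow dendritic cells in 10 groups of 3 libraries, with groups taken from the sample titles and treatments. Per the labels' protocols, RNA came from a Trizol extraction finished on a DNase-treated column, and the TruSeq RNA kit v2 was used for the libraries. The authors deposited whole-number read counts per gene with mm10 intervals. STAR 2.5, Subread, featureCounts 1.5.0-p1, DESeq2 and mm10 are named, with no role, per the submitters' processing notes. For the strand setting and the annotation release, no source used here gives a value. No row lacked a gene name, and symbols at more than 1 interval (396) were not named.

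The counts were tested with edgeR 4.0.16 in R 4.3.3: TMM scaling, filterByExpr by group, a group-means model over all 30 libraries, the quasi-likelihood F test and Benjamini-Hochberg adjustment over the 14808 genes tested. The standard error is the log2 change divided by the square root of F. The common biological coefficient of variation was 0.0515. Library totals were 9734778 to 51642601. In the smallest library, 3 reads were 0.29 CPM, and in the KO libraries compared at 4 h they were 0.0551 to 0.0731 CPM. Genes near these levels rest on few reads. Counts were simulated for the comparison at 4 h in KO cells, with 14808 genes and 1 spread for all genes. The fit called 40 of 40 genes raised 1.5-fold (genes averaging at least 100 reads) and 9 of 14608 unchanged genes. No smaller change was simulated, so the simulation does not cover the called genes below 1.5-fold, which were most of them. P-values measure the spread between these libraries, which may be technical, since nothing says that replicates are separate mice or cultures.

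Genes were named by a rule: the 15 largest rises and 12 largest falls among called genes whose libraries did not overlap and whose higher group averaged 5 CPM or more, up to 3 called genes with the smallest p per list and direction, fixed core members, and for the interaction the 4 with the smallest p. Genes outside it were chosen after their values were seen: Cadm1, Xcr1, Clec9a, the complement genes, Adgre1, F13a1, Bst2, Samd9l, Ifi203, Ifit3b, Nfkb2, Relb, Ptges, Sdc4, Cxcl11, Ccl20, Clec12b, Btc, Ikbke, C3, Cebpb and the families and genes of the closing observations. Of these, only Ptges and Sdc4 have single-gene values without each library, and no other alternative was run for them one by one. The genes, lists and tests were chosen with earlier results of these data known. Alternatives were DESeq2 1.42.0 size factors and its test, total-count scaling, other filters, fewer groups, a replicate block and leaving out each library. Leave-one-out counts of lists were added after seeing the data. Promoters came from RefSeq on GRCm38.p6.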

Additional observations from a re-analysis of the deposited data

Results flagged for a closer look

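The response to 4 h of OVA differed between genotypes, by the interaction test, for 6 genes, all with a smaller rise in KO cells. The KO minus WT difference in log2 change was -0.74 for Mmp14, -0.68 for Rasgef1b, -0.34 for Sod2, -1.74 for Ptges, -0.42 for Ehd1 and -0.34 for Sdc4. Ptges, the inducible prostaglandin E synthase, stood at 1.2, 1.28 and 0.942 CPM in untreated and 1.97, 1.64 and 1.68 CPM in OVA-treated KO cells, and at 0.401 to 0.647 and 2.62 to 2.85 CPM in WT cells (adjusted p = 0.00821). Its call was lost without KO untreated replicate 2 (adjusted p = 0.0557) or WT untreated replicate 1 (0.0547). Sdc4, a cell-surface proteoglycan, rose by 0.47 in KO and 0.82 in WT cells (adjusted p = 0.0342). Its call held without KO untreated replicate 3, KO OVA replicate 3 or WT OVA replicate 3 and was lost without any of the other libraries, with adjusted p-values of up to 0.177.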

How the results depend on the processing

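The count of genes called in KO cells at 4 h was 1722, ran from 1532 with no filter to 2010 with the compared groups alone, and was 1869 with DESeq2 and 1105 to 1382 when 1 library was left out. At 30 min the count was 558, moved to 246 with the compared groups alone and ran from 173 to 710 when 1 library was left out. In WT cells it was 3484, and 2594 to 3636 under the alternatives. The interaction count of 6 moved to 11 with no filter, 10 with the stricter filter (8 lower and 2 higher), 25 with DESeq2 (18 and 7), 19 in libraries without Jurkat cells and 12 with the replicate block, was 7 with total counts (6 lower and 1 higher), and ran from 3 to 15 when 1 library was left out. The filters also changed the number of genes tested, and the cause of these changes in count was not tested. The labels state no pairing of replicates. Deviations from the group means had correlations of -0.111, -0.0753 and -0.0252 between same-numbered untreated and 4 h KO libraries. With 3 libraries per group, these values cannot exclude a pairing by mouse or culture. With the replicate block 1851 genes were called at 4 h in KO cells. Of 164 named genes, 1 changed sign over 8 settings on all replicates: the log2 change of Tlr9, -0.0009, was 0.0024 with total counts, 1e-04 with the stricter filter and 0.0038 with the compared groups alone. When 1 library was left out, Tlr9 ran from -0.0167 to 0.0231, Ly75 from -0.0113 to 0.0405 and Lamp1 from -0.0072 to 0.0789, none of them called. Of 130 named genes called, 34 lost their call without at least 1 library and 96 kept it. In the KO libraries compared at 4 h, 3 reads were 0.0551 to 0.0731 CPM. A gene near this level rests on few reads, so its change is imprecise.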

Other observations

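The families below were chosen after their values were seen in KO cells, and their counts have no test. Over all genes tested, 5.94% were higher and 5.69% lower. Of 25 C-type lectin (Clec) genes tested, 11 rose and 1, Clec4g, fell (log2 -0.32), with a median log2 change of 0.23. Beside Clec4e these included its partner Clec4d, which rose from 43.5, 31.9 and 29.9 CPM to 66.5, 65.7 and 66.8 CPM (log2 0.92), Clec5a (0.84), the fungal sensor Clec4n (0.57) and Clec4a1 (0.55). Without untreated replicate 2 or 3 or OVA replicate 1 or 3, 0 of the family fell. Clec9a and Clec10a had log2 changes of -0.03 and 0.02 and were not called. Both formyl peptide receptors tested, Fpr1 (log2 2.60) and Fpr2 (2.72), rose, from under 1 CPM to between 2.19 and 5.53 CPM. Other risen genes outside the lists, also chosen after their values were seen, were Ikbke, a kinase related to IKK, from 16 to 18.6 CPM to 45.1 to 49.4 CPM (1.46), complement C3 from 25.2 to 28.7 CPM to 75.4 to 86.4 CPM (1.62), and the transcription factor Cebpb (1.25).

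Of 29 integrin genes, 5 fell and 2 rose, the rises being near the share of all genes, or 3 and 2 without untreated replicate 1. The falls were Itgae, Itga6, Itgal (log2 -0.19), Itgb7 (-0.18) and Itgax (-0.17), the last being the CD11c chain carried by dendritic cells, while the fibronectin receptor chain Itga5 rose by 0.54. With OVA replicate 2 or 3 left out, 3 fell, and 1 rose without any library other than untreated replicate 1. Of 41 histone genes tested, 6 fell and 0 rose, and the median log2 change was -0.65. They included the linker histone genes Hist1h1a, Hist1h1b, Hist1h1d and Hist1h1e, all at most 2.28 CPM, and most histone genes were lowly counted, with 37 of 41 under 5 CPM untreated. The histone count was 3 without untreated replicate 2, 2 without OVA replicate 2 and 1 without untreated replicate 3, OVA replicate 1 or OVA replicate 3.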
